A study of Mus musculus with 4 samples.

Results

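Growth hormone and prolactin act through a pair of related cell surface receptors, and 10 genes of this signalling route were followed in hair follicle stem cells. They were the receptor genes Prlr and Ghr, the kinase genes Jak1 and Jak2, the transcription factor genes Stat3, Stat5a and Stat5b, and the feedback inhibitor genes Socs2, Socs3 and Cish. A gene was taken by its symbol, from every row of the array table that the platform annotation gives to that gene alone. This found 9 of the 10 genes, on 11 of 28815 rows, among 19935 genes in all. Prlr, the prolactin receptor gene, had 0 rows of its own, and 0 of the 1605 rows that name several genes listed it. Another 5430 rows carry no gene name here. Prlr was therefore not analysed here.

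Ghr and Prlr are class I cytokine receptors with no kinase of their own. On hormone binding they activate the kinase Jak2 attached to them, which phosphorylates the STAT5 proteins, and these move to the nucleus and bind DNA. Cish, Socs2 and Socs3 are among the genes that such signals induce, and their proteins damp the receptor and the kinase. In skin, prolactin is known to bear on the hair cycle, and the series title asks how calcineurin and Nfatc1 tie stem cell quiescence to hormonal signalling in pregnancy and lactation.

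All animals were male CD-1 mice aged P56 (postnatal day 56) whose hair follicles rested in the second telogen. One group received 100 mg/kg CSA and the other vehicle, both by injection into the peritoneum over 3 days. CSA is not written out in the labels. In calcineurin research it stands for cyclosporine A, which inhibits that phosphatase. Cells carrying both alpha6 integrin and CD34, the bulge stem cells of the follicle, were sorted from the skin, and their RNA was put on 4 one-colour arrays, 2 biological replicates from CSA and 2 from vehicle. The number of mice behind a sample is not stated. Female, pregnant or lactating animals and hormone levels are not part of these arrays.

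Each value states how far a gene stood above or below a baseline that the authors set for its row, on a log scale taken as log2. Levels of different genes cannot be set against each other on this scale. The number of arrays limits the precision, and 2 arrays against 2 allow an exact two-sided permutation p of 0.333 at the smallest. Of 10 bulge markers 9 stood above the baseline on all 4 arrays, against 4.1% of all genes. The exception was Itga6, the alpha6 integrin gene, which stood above it on 1. The list's median was 0.376 on CSA replicate 1 and 1.15 on CSA replicate 2, against 0.971 and 1.26 on the vehicle arrays. Of the 10 differences 8 were below 0, against 58.9% of all genes. Cd34, the other gene of the sort, read 1.75 and 3.60 in CSA, against 4.05 and 4.25 in vehicle, a difference of -1.47 ± 0.67. The groups did not overlap. Across rows, CSA replicate 1 correlated with the other arrays at 0.06 to 0.16 and vehicle replicate 1 at 0.02 to 0.17, while CSA replicate 2 and vehicle replicate 2 correlated at 0.516. Of the 4 arrays, vehicle replicate 1 was highest for 8620 of the 19935 genes, for 7 of 7 measured markers of the epidermis between follicles, for 6 of 6 endothelial markers, and for 6 of 8 fibroblast and 6 of 8 immune markers. It was also highest for 3 of 4 adipocyte, 2 of 6 sebaceous and 0 of 6 melanocyte markers. The medians of the epidermal, endothelial, fibroblast and immune lists on the CSA arrays ran between -1.16 and 0.03. On vehicle replicate 1 they were 0.472 for epidermis, 0.242 for endothelium, 0.176 for fibroblasts and 0.145 for immune cells, and on vehicle replicate 2 they lay between -0.401 and -0.0018. As in any sorted pool, fewer cells of a type and less RNA per cell cannot be told apart.

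None of the 9 genes passed the test between CSA and vehicle. limma with Benjamini-Hochberg adjustment over 19935 genes called 0 of the 9 at an adjusted p under 0.05, and 0.0% of all genes. At an unadjusted p under 0.05 it gave 0 of the 9, against 2.83% of all genes (565). The groups did not overlap for 2 of the 9, against 26.3% of all genes. These were Socs2, with CSA above vehicle as for 10.9% of all genes, and Stat5b, with CSA below vehicle as for 15.4%. For Socs2 this held only on the row used for the gene. With the mean over all rows of a gene, or its row with the highest variance, the count was 1 of the 9. A 1.5-fold distance without overlap was met by 0 of the 9, against 5.9% of all genes. The 9 differences (CSA minus vehicle) lay between -0.46 and 0.28, with 3 above 0 and 6 below. Their median was -0.027, and the median over all genes was -0.044.

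**Figure D1:**
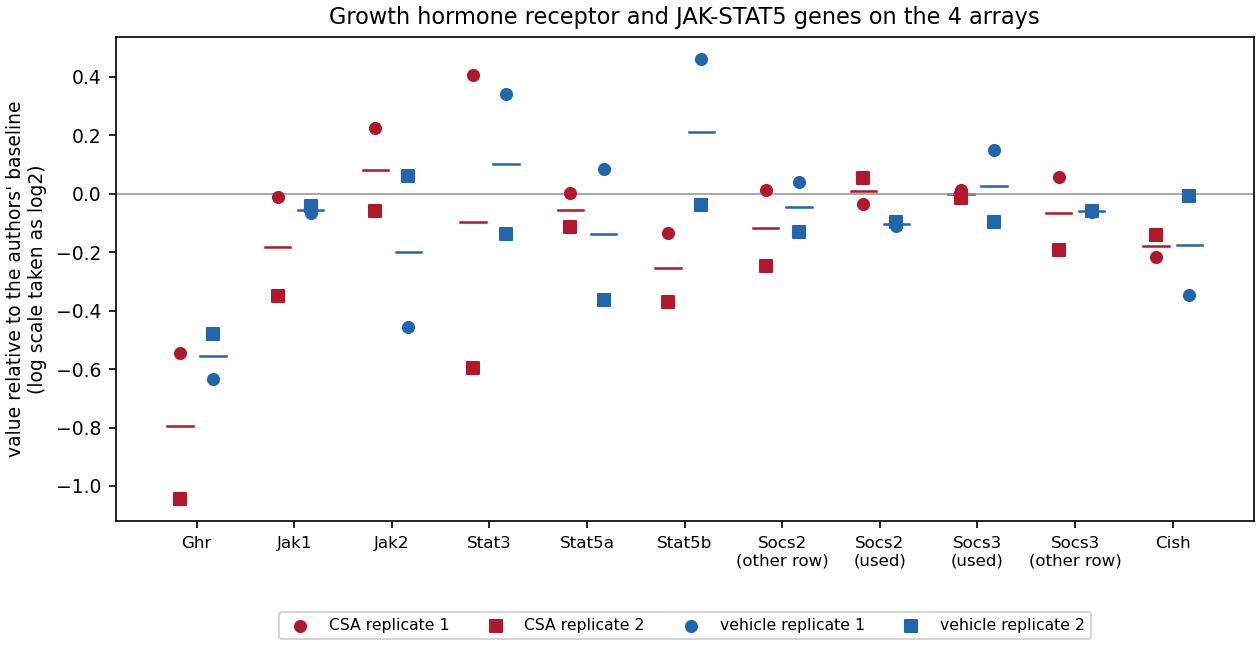
Value of each row of the 9 measured genes on each array, relative to the authors' baseline (log scale taken as log2); red marks CSA, blue vehicle, circles replicate 1, squares replicate 2 and short lines the group means. The groups overlap on all rows but Stat5b and the used row of Socs2, and Ghr, Jak1 and Cish lie below 0 on all 4 arrays.

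Ghr, which encodes the growth hormone receptor, is the measured receptor. Its row (10427402) read -0.55 and -1.05 on the CSA arrays, against -0.63 and -0.48 on the vehicle arrays. All 4 values lay below the baseline, as for 3.35% of all genes, with CSA replicate 2 the lowest and vehicle replicate 1 between the CSA arrays. The difference was -0.24 ± 0.24 (a value after ± is the moderated standard error of limma over 2 arrays per group, here and below), with a 95% interval from -0.89 to 0.41. Without CSA replicate 2 it was 0.01, and without CSA replicate 1 it was -0.49.

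Jak2 encodes the kinase bound to the growth hormone and prolactin receptors. Its row (10462363) read 0.22 and -0.06 in CSA, against -0.46 and 0.06 in vehicle. Vehicle replicate 1 was the lowest array, and vehicle replicate 2 lay between the CSA arrays. The difference of 0.28 ± 0.26 (95% interval -0.42 to 0.98) was the highest of the 9 with all 4 arrays. It was 0.02 without vehicle replicate 1, 0.14 without CSA replicate 1 and 0.54 without vehicle replicate 2. Jak1, a related kinase that serves many cytokine receptors, read -0.01 and -0.35 in CSA, against -0.07 and -0.04 in vehicle (row 10514668). The vehicle values fell between the CSA values, and the difference was -0.13 ± 0.19 (95% interval -0.66 to 0.40). Without CSA replicate 2 it was 0.04, and without CSA replicate 1 it was -0.30.

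Stat5b, a transcription factor that carries growth hormone and prolactin signals to the nucleus, had the widest distance between the group means among the 9 genes with all 4 arrays. Without CSA replicate 1 that of Stat3 was wider, without CSA replicate 2 that of Jak2, and without vehicle replicate 1 those of Ghr and Stat5a. The Stat5b row (10391286) read -0.13 and -0.37 on the CSA arrays, against 0.46 and -0.04 on the vehicle arrays. Both CSA values lay below both vehicle values, by 0.096 at the nearest, while 0.5 separated the vehicle arrays from each other. The difference was -0.46 ± 0.25, with a 95% interval from -1.14 to 0.21 and a limma adjusted p of 0.999. Its size stood at the 86.2th percentile of all genes. It was -0.215 without vehicle replicate 1, the array that was also highest for most epidermal, endothelial, fibroblast and immune markers, and their part in the result was not tested. Without vehicle replicate 2 it was -0.715.

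Stat5a, the close relative of Stat5b with an overlapping role, read 0.001 and -0.12 in CSA, against 0.08 and -0.36 in vehicle (row 10381172). The vehicle arrays were the highest and the lowest. The difference was 0.08 ± 0.22 (95% interval -0.53 to 0.69), and -0.14 without vehicle replicate 2 or 0.305 without vehicle replicate 1. Whether the probes tell these similar genes apart was not tested. Stat3, which answers to other cytokines and growth factors as well, varied most within the groups among the 9 genes. It read 0.41 and -0.60 in CSA, against 0.34 and -0.14 in vehicle (row 10391301). The CSA arrays were the highest and the lowest, and in both groups the array numbered 1 stood above the array numbered 2. Its standard deviation within groups was 0.556, at the 86.7th percentile of all genes, and the difference was -0.20 ± 0.42 (95% interval -1.34 to 0.94). It was 0.305 without CSA replicate 2, 0.04 without vehicle replicate 1 and -0.70 without CSA replicate 1. Stat5b, Stat5a and Stat3 are neighbouring genes on mouse chromosome 11 in the RefSeq table of assembly GRCm38.p6, and their differences of -0.46, 0.08 and -0.20 did not share a sign.

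**Figure D2:**
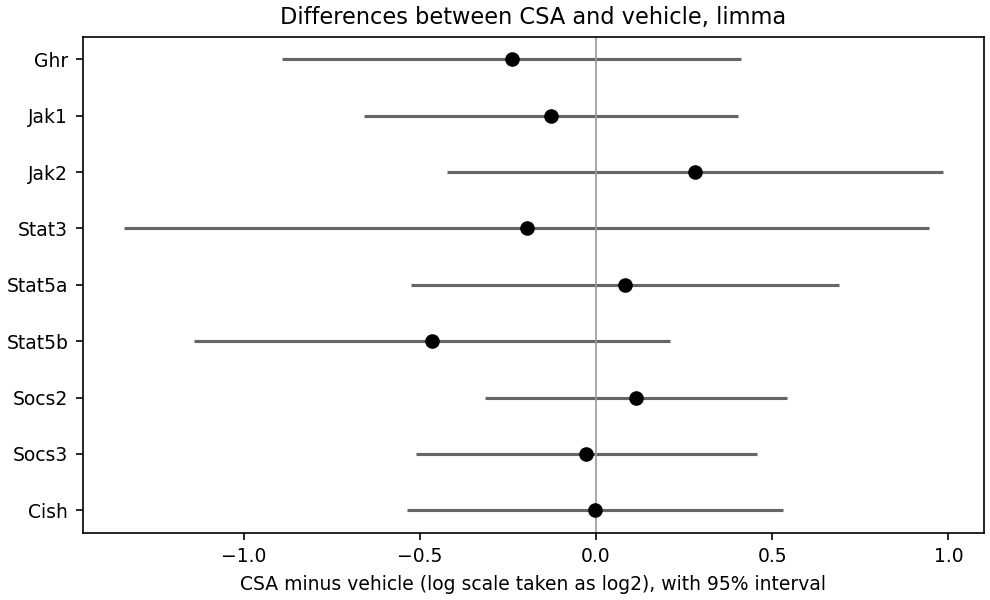
Difference between CSA and vehicle for each of the 9 genes (horizontal axis, CSA minus vehicle on a log scale taken as log2), with the 95% interval from limma's moderated standard error. All 9 intervals include 0, and the interval of Stat3 is the widest, from -1.34 to 0.94.

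The feedback inhibitors are genes that the route itself induces, and STAT5 is known to bind the sequence TTCNNNGAA, which reads the same on both strands. This motif was searched in windows of RefSeq promoters (GRCm38.p6) that reach from 250 bases before to 50 bases after an annotated start. Of the 10 genes 9, all but Socs2, matched the promoter table, with 14 windows. The motif was found in 3 of the 14 windows, 1 each of Cish, Socs3 and Prlr, and in 8.3% of all 32851 windows. The Cish window held 2 copies, at positions +1 and +12 from the start site; 2 or more copies were found in 0.457% of all windows. The copies of each window did not overlap one another. The Socs3 copy started at -154, and the Prlr copy at -110 from 1 of its 3 annotated starts. The stretches of Cish and Socs3 are shown because they carry the motif beside inhibitor genes whose RNA was measured, with the motif in capitals. A match describes these letters and is not a measured binding site.
Cish (chr9:107296654-107296683, GRCm38.p6, + strand, 30 bases across the start site): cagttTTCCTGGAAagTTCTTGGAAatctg
Socs3 (chr11:117969367-117969616, GRCm38.p6, - strand, the 250 bases before the start site): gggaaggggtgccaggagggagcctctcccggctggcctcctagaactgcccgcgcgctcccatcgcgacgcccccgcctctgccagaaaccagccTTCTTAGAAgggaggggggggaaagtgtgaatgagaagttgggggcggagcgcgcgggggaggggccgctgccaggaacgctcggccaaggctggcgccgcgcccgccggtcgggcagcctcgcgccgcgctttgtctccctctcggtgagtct

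Cish, with the paired motif above, encodes a cytokine-inducible inhibitor that STAT5 drives in blood cells. It read -0.22 and -0.14 in CSA, against -0.35 and -0.01 in vehicle (row 10588577). All 4 arrays lay below the baseline, and the vehicle values enclosed the CSA values. The means were -0.178 in CSA and -0.177 in vehicle, a difference of -0.0014 ± 0.19 that was 0.026 with each array centred on its median. The 95% interval from -0.54 to 0.53 corresponds to a fold change between 0.69 and 1.45, and changes of that size in either direction are within the error. Leaving out 1 array gave values from -0.17 (without vehicle replicate 1) to 0.17 (without vehicle replicate 2).

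Socs3, an inhibitor that binds JAK kinases and cytokine receptors, had 2 rows. The row used for the gene (10383010) carries 1 GenBank sequence in the annotation and read 0.01 and -0.01 in CSA, against 0.15 and -0.10 in vehicle. The other row (10393449), which carries the RefSeq transcript, read 0.06 and -0.19 in CSA, against -0.06 and -0.06 in vehicle. On each row the values of one group enclosed those of the other. The difference was -0.027 ± 0.18 on the first row (95% interval -0.51 to 0.46), 0.026 after quantile normalization, and -0.0074 on the other row. Without vehicle replicate 1 the first row gave 0.10, and without vehicle replicate 2 it gave -0.15.

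Socs2, an inhibitor that growth hormone induces in liver and that limits body growth in mice, had 2 rows whose differences had opposite signs. The row used for the gene (10394674) read -0.03 and 0.05 in CSA, against -0.11 and -0.10 in vehicle, and its groups did not overlap. Its standard deviation within groups was 0.045, at the 5.14th percentile of all genes, and the difference was 0.11 ± 0.16 (95% interval -0.32 to 0.54, limma adjusted p 0.999). The other row (10372069) read 0.01 and -0.25 in CSA, against 0.04 and -0.13 in vehicle, and its groups overlapped, with a difference of -0.072. The mean of both rows gave 0.02.

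**Figure D3:**
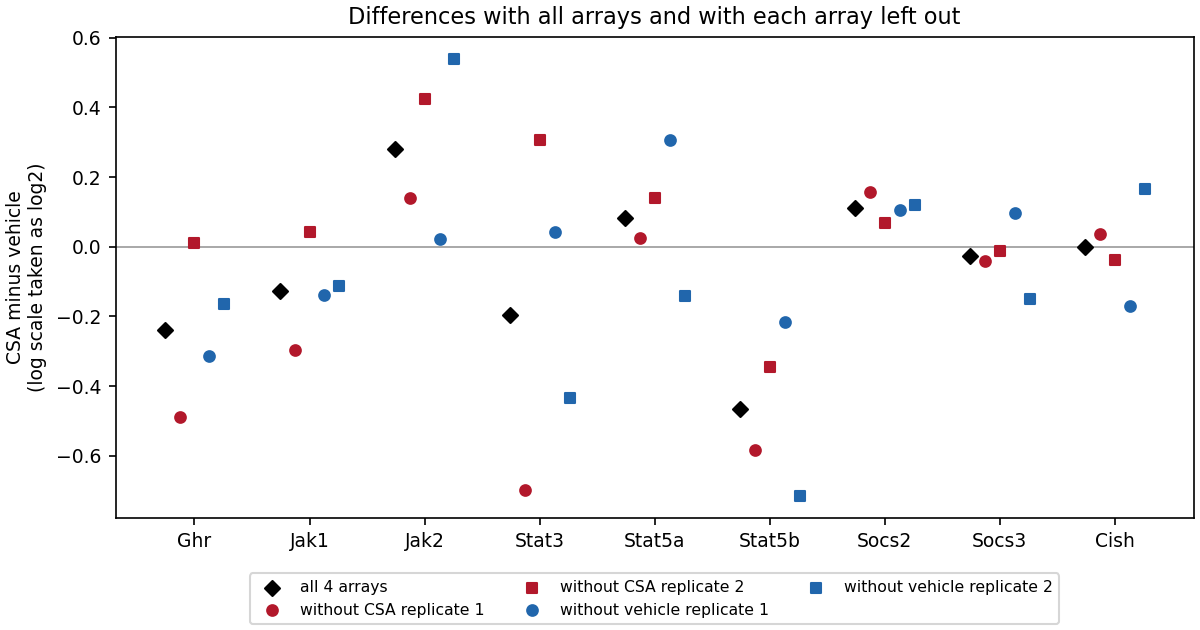
Difference between CSA and vehicle (vertical axis, log scale taken as log2) for each of the 9 genes with all 4 arrays (black diamonds) and with each array left out in turn (red without a CSA array, blue without a vehicle array). Stat3 runs from -0.70 to 0.305 and Jak2 from 0.02 to 0.54; Stat5b and Socs2, whose groups do not overlap, cannot change sign.

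Groups that do not overlap, as those of Stat5b and Socs2, cannot change sign when an array is left out. Of the other 7 genes, Jak2 had the same sign in all 4 cases, and 6 changed sign in at least 1. The patterns most like that of Stat5b over the 4 arrays, by root mean square difference, were those of Celf6 (0.041), Tnfrsf9 (0.052) and Rdh1 (0.054). For Jak2 these were Ssb (0.037), Sart1 (0.041) and Metap2 (0.042). Such likeness is common over 4 arrays: 102 genes lay within 0.1 of Stat5b and 53 within 0.1 of Jak2.

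Around these genes lie the ligands and growth hormone axis, other receptors, other kinase and STAT genes, adaptors, inhibitors and target genes, taken as 6 lists. Of their 67 genes 60 were measured by a row of their own, and limma called 0 of the 60 at an adjusted p under 0.05. Their differences were split, 30 above 0 and 30 below, with a median of -0.0064; over all genes the median was -0.044, with 41.1% above 0. The groups did not overlap for 26 of the 60, a larger share than the 26.3% of all genes. Of these 11 had CSA above vehicle (10.9% of all genes) and 15 had CSA below (15.4%), each a larger share of the 60. The groups stood at least 1.5-fold apart without overlap for 9 of the 60, also a larger share than the 5.9% of all genes. At an unadjusted p under 0.05 limma gave 1 higher gene (Socs4), against 1.83% of all genes, and 3 lower genes (Il31ra, Ccnd1 and Ccnd2), against 1.0%. The lists were drawn up with earlier results of these arrays known, which had shown Il31ra, Ccnd1 and Ccnd2 far from 0, so their counts are not independent evidence.

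The list of ligands and growth hormone axis genes had 7 of 8 differences below 0, against 58.9% of all genes. Besides Gh, Prl, Ghrh and Igf1, it holds the receptor gene Igf1r and the genes Igfals, Igfbp3 and Igfbp5. Its median of -0.135 was -0.058 without vehicle replicate 1, -0.065 without CSA replicate 2 and -0.23 without vehicle replicate 2. Igfbp3, a carrier of insulin-like growth factors, read -2.18 and -0.60 in CSA, against 0.02 and -0.02 in vehicle. CSA replicate 1 was by far the lowest, and the difference of -1.39 ± 0.57 became -0.60 when that array was left out. Igfbp5, another such carrier, read 0.01 and 1.63 in CSA, against 1.76 and 1.79 in vehicle. All 4 arrays gave a difference of -0.95 ± 0.59, and leaving out CSA replicate 1 gave -0.14. Gh, the growth hormone gene, differed by 0.19 ± 0.15, and Ghrh, its releasing hormone in the hypothalamus, by -0.13 ± 0.16. Igf1, the growth factor that growth hormone induces in liver, differed by -0.05 ± 0.16.

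Of the 10 measured receptors of the same class, 5 differences were above 0 and 5 below, with a median of 0.039 that was -0.077 without vehicle replicate 2. Lifr, a receptor chain for leukemia inhibitory factor, read 1.39 and -0.004 in CSA, against -0.71 and -0.08 in vehicle. The groups did not overlap, and the difference was 1.09 ± 0.56 with all arrays and 0.39 without CSA replicate 1. Il13ra1, a chain of the receptor for interleukin 13, differed by 0.36 ± 0.18 and its partner Il4ra by -0.25 ± 0.16. Il31ra, a receptor chain that partners with Osmr, differed by -1.39 ± 0.26.

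The other kinase and STAT genes held close to 0. The 4 measured members, Tyk2, Stat2, Stat4 and Stat6, had differences between -0.08 and 0.05, and their groups overlapped for all 4. Stat6, which carries interleukin 4 signals, read -0.53 and 0.38 in CSA, against 0.03 and -0.03 in vehicle, so that CSA held both the lowest and the highest array. Leaving out CSA replicate 1 gave a difference of 0.38, and leaving out CSA replicate 2 gave -0.53. Jak3 had no row of its own and was not analysed here.

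The other inhibitors of JAK-STAT signalling had a median of 0.24, with 10 of 14 differences above 0, against 41.1% of all genes. With all 4 arrays this was the highest of the 6 list medians. Without CSA replicate 1 it was 0.06, below the 0.10 of the other kinase and STAT genes, and without CSA replicate 2 it was 0.48. CSA replicate 1 had a list median of 0.24 and CSA replicate 2 of 0.01, against -0.004 on vehicle replicate 1 and -0.02 on vehicle replicate 2. Socs4, of the same family as Socs2 and Socs3, read 0.26 and 0.01 in CSA, against -0.82 and -0.47 in vehicle. Both CSA values lay above both vehicle values, and the difference was 0.78 ± 0.21 (limma unadjusted p 0.0207, adjusted p 0.999). Ptpn1, a phosphatase that acts on Jak2, read 0.36 and -0.69 in CSA, against -2.37 and -0.89 in vehicle. Vehicle replicate 1 was the lowest array, and the difference was 1.46 ± 0.65, or 0.72 without it. Pias3, an inhibitor of Stat3, differed by 0.53 ± 0.21, and Pias1, of the same family, by 0.67 ± 0.37, or 0.19 without CSA replicate 1. Beside them, Socs2, Socs3 and Cish had differences of 0.11, -0.027 and -0.0014.

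Among the adaptors that link these receptors to other kinase cascades, 7 of 10 differences were above 0, with a median of 0.10. Leaving out CSA replicate 1 brought this median to 0.034, and leaving out vehicle replicate 2 brought it to 0.012. Gab1, a docking protein, read -0.26 and -0.41 in CSA, against 0.09 and 0.04 in vehicle. The groups did not overlap, and the difference of -0.40 ± 0.16 ranged from -0.48 to -0.33 with an array left out. Irs1, the insulin receptor substrate, differed by -0.48 ± 0.28 and by -0.14 without vehicle replicate 1. Fyn, a kinase of the Src family, read 1.54 and 1.97 in CSA, against 0.14 and 1.70 in vehicle. Vehicle replicate 1 was again the lowest array, and the difference was 0.83 ± 0.58 with it and 0.05 without it. Sh2b1, an adaptor that binds Jak2, differed by 0.16 ± 0.15.

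Target genes of STAT5 known from mammary gland, liver or blood cells had 6 differences above 0 and 8 below of 14 measured. Their median was -0.087, and -0.003 without vehicle replicate 1. The list does not separate genes that STAT5 raises from genes that it lowers, so this split and median do not measure STAT5 activity. The D-type cyclin genes Ccnd1 and Ccnd2 differed by -1.52 ± 0.45 and -1.06 ± 0.37, and by -0.91 and -0.59 without CSA replicate 1. The cytokine genes Osm and Tnfsf11 differed by -0.25 ± 0.16 and -0.39 ± 0.24. The highest differences of the list were those of the transcriptional regulator genes Bcl6 (0.73 ± 0.57), Myc (0.68 ± 0.51) and Id1 (0.63 ± 0.49), and the groups overlapped for all 3. Without CSA replicate 1 they were -0.029 for Bcl6 and 0.0068 for Myc, and without CSA replicate 2 that of Id1 was 0.11. The survival genes Bcl2l1 and Mcl1 differed by 0.14 ± 0.20 and 0.16 ± 0.18. The milk protein genes Wap, Csn2 and Csn3 differed by -0.18 ± 0.19, -0.12 ± 0.16 and -0.16 ± 0.16.

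**Figure D4:**
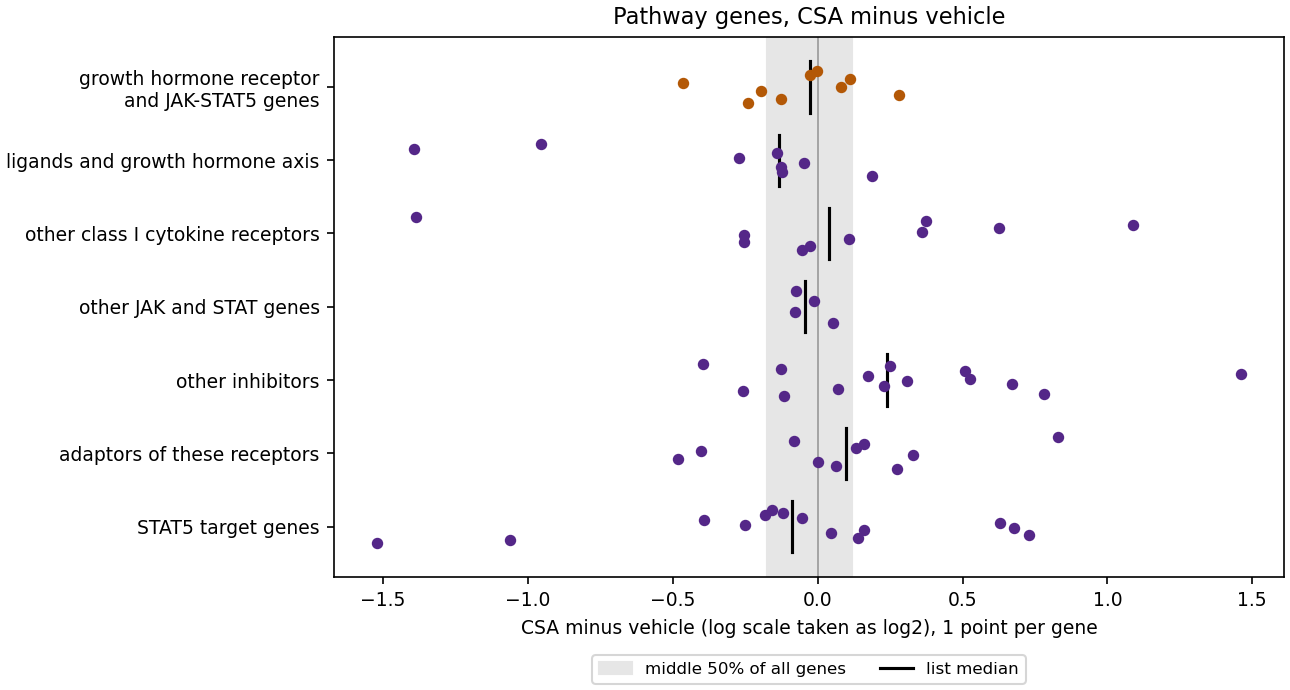
Difference between CSA and vehicle (horizontal axis, log scale taken as log2) for the 9 measured genes (orange, top row) and the 6 lists of other genes of the route (purple), 1 point per gene, with black lines at the list medians and the middle 50% of all genes (-0.18 to 0.12) in grey. The 9 genes lie between -0.46 and 0.28, while single genes of the lists reach -1.52 (Ccnd1) and 1.46 (Ptpn1).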

How the data were processed

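Biotin-labelled cDNA, amplified in 1 round from 20 ng of total RNA per the labels' protocols, was measured on 4 arrays. The authors deposited log2-scale values, each row relative to an unknown baseline; the log base was taken as log2. The sources used here do not give how the arrays were read, background-corrected, summarized and normalized. Build mm8 is named in the submitters' processing notes. Array medians lay between -0.022 and 0.065.

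Rows were named through the platform annotation: 21780 rows have 1 gene, and 21689 of these, with all rows of the 9 members, matched a RefSeq table of GRCm38.p6 by gene identifier. Of several rows for a gene, the one with the highest mean was used. Each row is relative to its own baseline, so a high mean does not mark the row with more signal. limma 3.58.1 in R 4.3.3 (lmFit, eBayes without trend, no filter, no block) was fitted over 19935 genes, two-sided. Intervals use 4.13 degrees of freedom. P-values measure the spread between these samples. In 20 simulations, 19935 genes were drawn with the spread that limma fitted to these arrays and with independent errors. A small part of the genes was shifted. Of these limma called 0.1% of those shifted by 1 on the log2 scale, 13.9% by 2, 60.9% by 3 and 80.8% by 4. Correlation between the arrays was not simulated.

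Members, gene lists and tests were chosen with earlier results of these data known. All 9 measured members are named, and up to 4 genes of each pathway list with the largest absolute moderated t; Igf1, Bcl6, Myc, Id1, Bcl2l1, Mcl1, Wap, Csn2 and Csn3 were added after their values were seen. Alternatives were quantile normalization, median centring, a variance trend, no moderation, other row choices, all rows, a filter at the 25th percentile of the mean, the replicate number as a block, and each array left out. Because of the baselines set per row, the filter and the trend on the mean do not separate weak from strong signals.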

Additional observations from a re-analysis of the deposited data

How the results depend on the processing

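limma called 0 of the 9 genes and 0 of all genes at an adjusted p under 0.05 under all 13 alternatives, 4 of which left out an array; the filter on the mean kept 5 of the 9. In the simulation above, with independent errors, limma called 0.1% of genes shifted by 1 on the log2 scale and 80.8% of those shifted by 4. Why no gene was called on the real arrays was not tested. Genes 1.5-fold apart without overlap numbered 1177, 645 with the filter on the mean (fewer genes tested) and 1565 to 3371 with an array left out, where 1 array overlaps less often by construction. The share of these genes that was higher in CSA was 66.3%, and 75.3%, 49.9%, 42.2% and 68.8% without CSA replicate 1, CSA replicate 2, vehicle replicate 1 and vehicle replicate 2. With the replicate block, 914 genes instead of 565 had an unadjusted p under 0.05, and 0 of the 9 did; each difference is the same by construction (-0.465 for Stat5b). Deviations from the group means of arrays with the same number correlated at 0.236, and the labels do not say that the number pairs them.

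Settings that choose rows, filter or change the variance cannot move the difference of a gene with 1 row. Where it could move, that of Stat5b ran from -0.715 to -0.215 and that of Jak2 from 0.0211 to 0.54. Socs2 turned to -0.0716 on the row with the highest variance, Socs3 to 0.0259 with quantile normalization and Cish to 0.0255 with centred arrays. Of the pathway genes named above, Tyk2 turned to -0.000644 and Stat4 to 0.00876 with quantile normalization, and Stat4 to 0.0127 with centred arrays. Pathway genes not named were not followed singly through the alternatives. Centring shifts the differences of all genes by the same amount by construction, and the highest-variance row of Socs2 is its other row. The cause of the changes with quantile normalization was not tested. With an array left out, differences ran from -0.489 to 0.0108 for Ghr, -0.296 to 0.0429 for Jak1, -0.699 to 0.305 for Stat3, -0.141 to 0.305 for Stat5a, -0.151 to 0.0976 for Socs3 and -0.17 to 0.167 for Cish. They ran from -0.124 to 0.231 for Tyk2, -0.171 to 0.0117 for Stat2, -0.0591 to 0.0306 for Stat4, -0.529 to 0.381 for Stat6, -0.0287 to 1.49 for Bcl6 and -0.0419 to 0.323 for Bcl2l1. List medians ran from -0.141 to 0.0429 for the 9 genes and -0.23 to -0.0582 for ligands and the growth hormone axis. They ran from -0.0766 to 0.102 for receptors, -0.0693 to 0.102 for kinases and STAT genes and 0.0602 to 0.476 for inhibitors. For adaptors they ran from 0.0124 to 0.0951 (0.16 with the filter), for STAT5 targets from -0.186 to -0.003 and for all lists from -0.0758 to 0.044.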

Other observations

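Genes whose promoter window held the motif TTCNNNGAA were set beside those without it, as a description with no test. The 1403 measured genes with the motif had a median difference between CSA and vehicle of -0.048, with the middle 50% between -0.17 and 0.09. The 14209 without it had a median of -0.041, with the middle 50% between -0.17 and 0.13. The groups did not overlap for 24.9% of genes with the motif and for 26.3% of genes without it.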
